A study of Homo sapiens with 2 samples.

Results

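The genes followed here, 8 of 11511 with values in the table, each encode a carrier or carrier subunit that moves amino acids across the plasma membrane. They were chosen by gene symbol: SLC7A5, SLC3A2, SLC7A1, SLC7A6, SLC1A4, SLC1A5, SLC38A1 and SLC38A2. All 8 had a value in both libraries. The libraries came from Hep3B, a long-established cell line from a human hepatocellular carcinoma. One library was made from cells labelled as a no treatment control and one from cells exposed to 25 µM A4368 for 24 h, both grown in DMEM with serum. A4368 is a compound known here only by that code, with any vehicle not given in the sources used here. At issue is which genes differ in expression after exposure to it. With 1 library per group there were no replicates, so values have no error from repeated cultures, no p-value is given, and each difference describes this pair of libraries.

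Amino acid carriers divide the work of feeding a cell. Sodium-coupled carriers of the SLC38 family load small neutral amino acids. In the SLC1 family, SLC1A4 and SLC1A5 exchange small neutral amino acids. SLC7 carriers bring in essential amino acids, several of them only when bound to the glycoprotein heavy chain SLC3A2. Glutamine taken up by the first kinds can be traded outward for leucine by the last, and leucine in turn signals to the growth kinase complex mTORC1. Many of these genes are known targets of ATF4, the transcription factor made when cells run short of amino acids. ATF4 with a C/EBP partner binds C/EBP-ATF response elements, whose core was searched here as TGATGNAA. Tumour cells often express SLC7A5, SLC3A2 and SLC1A5 strongly.

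Values were taken to be FPKM (fragments counted per kilobase of a transcript and scaled to library size), a level per length that can be set side by side between genes. The log2 ratio below is log2 of (A4368 FPKM + 1) over (control FPKM + 1), a scale that understates the difference of low genes. A fold is the plain ratio of the deposited values. A gene was counted as past the limit when its log2 ratio was at least 0.32 in size. The 11238 genes whose mean reached 1 FPKM were kept, and their log2 ratios had a median of 0.01 and an SD of 0.26. The depth behind the values is unknown. All 8 liver and hepatoma markers had values, among them ALB at 9183 FPKM in control cells and 8930.3 FPKM in treated cells. Of the 8, 7 were lower and 1 higher with A4368, beside 48.0% and 52.0% of all genes. Their log2 ratios ran from -0.32 for AFP to 0.10 for APOB, none past the limit before rounding. None of 5 endothelial markers, 1 of 5 stellate and fibroblast markers and 2 of 5 leukocyte markers had values, and their summed levels were 17.9 FPKM for the fibroblast and 20.1 FPKM for the leukocyte markers in the control against 11.9 FPKM for each with A4368. The part of these markers in the results was not tested. In bulk RNA, fewer cells expressing a gene and less of its RNA per cell cannot be told apart.

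The promoters of these genes show which of them carry the letters of the ATF4 element close to a start site. RefSeq (GRCh38.p14) gave 14 promoter windows for the 8 genes, each from 250 bases before to 50 bases after a transcript start, and the search covered both strands. A match to TGATGNAA lay in 5 of the 14 windows, belonging to 5 of the 8 genes, against 3.62% of all 35116 windows and 4.46% of all symbols with a window. The members have up to 3 windows each, which gives a gene more chances of a match. Stretches of 28 bases around the matches, read on the strand of the gene with the match in capitals, are shown because they name the genes and the start sites concerned.
SLC1A4 (chr2:64989382-64989409, plus strand, match 7 bases before the start): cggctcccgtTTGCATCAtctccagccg
SLC1A5 (chr19:46784894-46784921, minus strand, match 97 bases before the start): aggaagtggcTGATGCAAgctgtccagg
SLC38A1 (chr12:46266503-46266530, minus strand, match 4 bases before the start): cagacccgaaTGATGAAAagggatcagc
SLC3A2 (chr11:62881721-62881748, plus strand, match at transcribed base 38): aatgtgcaggactccTTACATCAgctcc
SLC7A1 (chr13:29595664-29595691, minus strand, match at transcribed base 8): ggcgcactgcTGATGAAAcctggcgccg
The capitals of SLC1A4 and SLC3A2 read the motif on the opposite strand. SLC1A4 and SLC1A5 hold the stricter form TGATGCAA, found in 0.866% of all windows. For SLC7A5, SLC7A6 and SLC38A2 these letters are not in the windows searched. The distances count to the first base of the match on the strand of the gene, and no binding was measured.

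Across the set, the 8 transporters differed little between the libraries. Of the 8, 4 were higher and 4 lower with A4368, beside 52.0% of all genes higher and 48.0% lower by any amount. None was higher past the limit of 0.32, against 7.31% of all genes, and 1 of 8, SLC7A6, was lower past it, against 7.79% of all genes. The median log2 ratio of the 8 genes was 0.003 and the median of its absolute size was 0.06, against 0.14 over all genes. Their summed level was 600.4 FPKM in control cells and 599 FPKM in treated cells. That sum made up 0.108% of all FPKM in the control library and 0.112% in the A4368 library. The share past the limit, 12.5% in either direction, was close to the 15.1% of all genes. At a looser limit of 1.1-fold, 1 of 8 was higher and 2 were lower, against 26.1% and 23.9% of all genes, and at 1.5-fold none passed in either direction, against 1.08% and 2.12%.

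**Figure D1:**
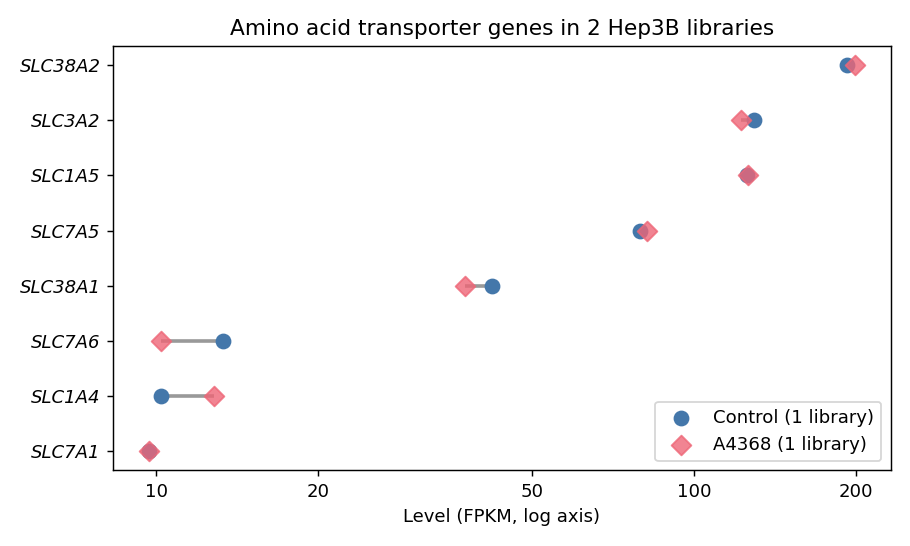
Level of each of the 8 transporter genes in FPKM on a log axis, with 1 circle for the control library and 1 diamond for the A4368 library, joined by a line. The genes spread from about 9.68 to 199 FPKM, and the symbols lie apart mainly for SLC7A6, which is lower with A4368 (13.3 and 10.2 FPKM), and SLC1A4, which is higher (10.2 and 12.8 FPKM).

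The levels of the 8 genes formed an abundant set and a less abundant one. SLC38A2 was first in both libraries, with 31.9% of the summed level in the control and 33.2% with A4368. SLC3A2 and SLC1A5 followed at nearly equal levels and in the opposite order in the libraries, since SLC3A2 was 1.03-fold above SLC1A5 in the control and SLC1A5 1.03-fold above SLC3A2 with A4368. SLC7A5 came next and SLC38A1 after it in both. SLC38A1 was 3.17-fold above the next gene in the control and 2.93-fold above it with A4368, the widest gap in the order in each library. SLC7A6, SLC1A4 and SLC7A1 lay below this gap, and SLC7A6 was above SLC1A4 in the control and below it with A4368. In the control, 49.9%, 41.8% and 40.3% of all genes with values lay below SLC7A6, SLC1A4 and SLC7A1. The median over all those genes was 13.3 FPKM. With 1 library each, the order of neighbours that lie within about 1.3-fold of each other has no replicate check.

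SLC38A2 encodes SNAT2, the sodium-coupled carrier of alanine, serine and glutamine that cells raise when amino acids are scarce. It stood at 192 FPKM in control cells and 199 FPKM in treated cells, 1.04-fold higher (log2 ratio 0.05). Of 760 genes with a mean from 0.5 to 2 times its own, 73.2% had an absolute log2 ratio at least as large. Its close relative SLC38A1 encodes SNAT1, which carries much the same amino acids. SLC38A1 was at 42.1 FPKM in control cells and 37.5 FPKM in treated cells, 1.12-fold lower (log2 ratio -0.16), and 36.1% of 3191 genes of like level differed as much. The SLC38A2 level was 4.55 times that of SLC38A1 in the control and 5.3 times with A4368. The members of this pair thus lay on opposite sides of 0, each within the limit.

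SLC1A5 encodes ASCT2, an obligatory exchanger through which many tumour cells take up glutamine. Its level was 125 FPKM in control cells and 126 FPKM in treated cells (log2 ratio 0.0063), and 95.8% of 1204 genes of like level differed as much or more. The sign of this small value turned after a correction for GC content and length, where it was -0.02. In GENCODE release 29, SLC1A5 shares 22.2% of its distinct 31-base words with an antisense RNA gene, so reads of the 2 genes cannot be told apart where they overlap unless strand was kept, a point not given in the sources used here. SLC1A4 encodes ASCT1, the related exchanger of alanine, serine and cysteine. SLC1A4 was at 10.2 FPKM in control cells and 12.8 FPKM in treated cells. This was 1.26-fold higher as a plain ratio and a log2 ratio of 0.30, the highest of the 8 genes and just inside the limit on that scale. The log2 ratio of SLC1A4 was above that of 91.7% of all genes kept, and 16.4% of 4580 genes of like level had an absolute ratio as large. The SLC1A5 level was 12.3 times that of SLC1A4 in the control and 9.82 times with A4368, so SLC1A4 remained the minor member of the pair. SLC1A4 passed the limit with a pseudocount of 0.1 (log2 ratio 0.33). It also passed after both libraries were rescaled to a common sum of all but the 50 highest genes (0.36). SLC1A4 and SLC1A5 both hold a match to the stricter motif, each at the most downstream of the start sites listed for the gene.

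**Figure D2:**
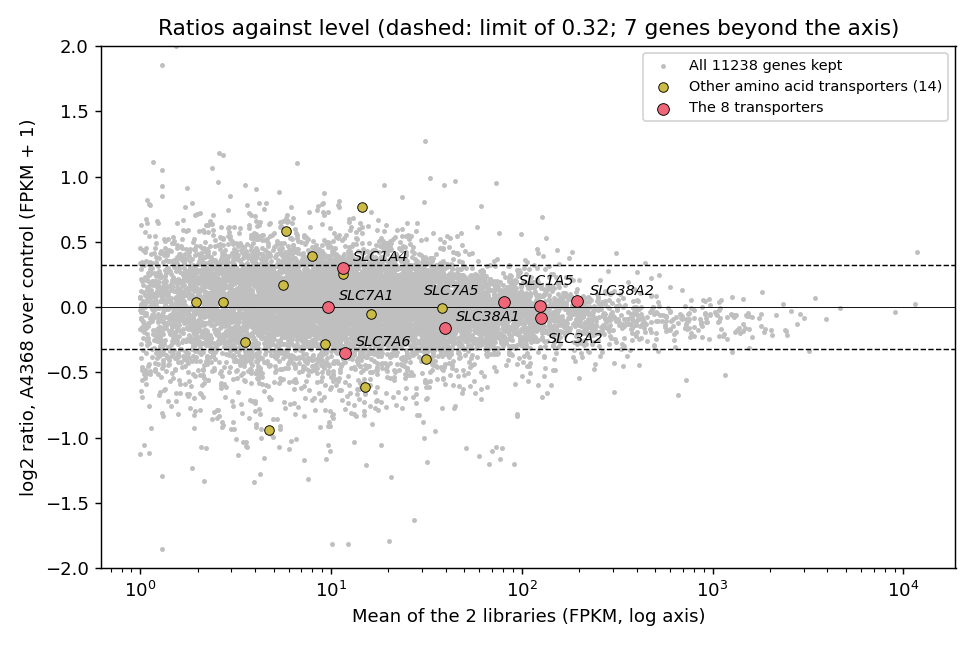
Log2 ratio of A4368 over control (FPKM + 1) against the mean of the libraries in FPKM on a log axis for 11238 genes (grey), 14 other amino acid transporters (yellow) and the 8 transporters (red, named), with dashed lines at the limit of 0.32 and 7 genes beyond the axis. The abundant transporters lie near 0, and SLC1A4 and SLC7A6 lie near the upper and lower dashed lines among genes of about 10 FPKM.

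SLC3A2 encodes the heavy chain 4F2hc, also called CD98, which escorts several SLC7 light chains to the cell surface. SLC3A2 was at 129 FPKM in control cells and 122 FPKM in treated cells, 1.06-fold lower (log2 ratio -0.08), and 61.3% of 1200 genes of like level differed as much. SLC7A5 encodes LAT1, the light chain that imports leucine and other large neutral amino acids in exchange for glutamine. SLC7A5 was at 79.2 FPKM in control cells and 81.7 FPKM in treated cells, 1.03-fold higher (log2 ratio 0.04), and 76.7% of 1874 genes of like level differed as much. Both genes of the leucine exchanger therefore stayed within the limit, with opposite signs. SLC7A5 shares 11.2% of its 31-base words with other genes, most of all with a pseudogene, and its value is uncertain to that extent.

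SLC7A6 encodes y+LAT2, a light chain that exports arginine in exchange for glutamine and sodium. It was at 13.3 FPKM in control cells and 10.2 FPKM in treated cells, 1.3-fold lower (log2 ratio -0.35), the lowest of the 8 genes. Its log2 ratio lay above that of only 6.69% of all genes kept, and 11.7% of 4592 genes of like level had an absolute ratio as large. SLC7A6 also cannot be read as a single gene. It overlaps SLC7A6OS, a gene on the opposite strand, and shares 42.8% of its 31-base words with it and 53.5% with any other gene. SLC7A6OS was at 5.92 FPKM in control cells and 6.5 FPKM in treated cells (log2 ratio 0.12). SLC7A6 stayed lower but was no longer past the limit with a pseudocount of 5 (log2 ratio -0.27) or after the rescaling (-0.31).

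The heavy chain was more abundant than its measured light chains together. SLC3A2 stood at 1.252 times the sum of SLC7A5, SLC7A6, SLC7A7 and SLC7A11 in the control and 1.175 times with A4368, with light chain sums of 103 and 104 FPKM. SLC7A5 supplied 76.8% of the light chain sum in the control and 78.5% with A4368. SLC7A6 supplied 12.9% and 9.81%. SLC7A11, which encodes the cystine and glutamate exchanger xCT, supplied 6.51% and 8.74%, and SLC7A7, which encodes y+LAT1, 3.84% and 2.99%. The smaller light chains therefore differed in both directions while their sum with SLC7A5 was nearly level. Without SLC7A5 the heavy chain was at 5.387 times the remaining light chains in the control and 5.456 times with A4368. These are levels of RNA, and no protein or assembled transporter was measured.

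**Figure D3:**
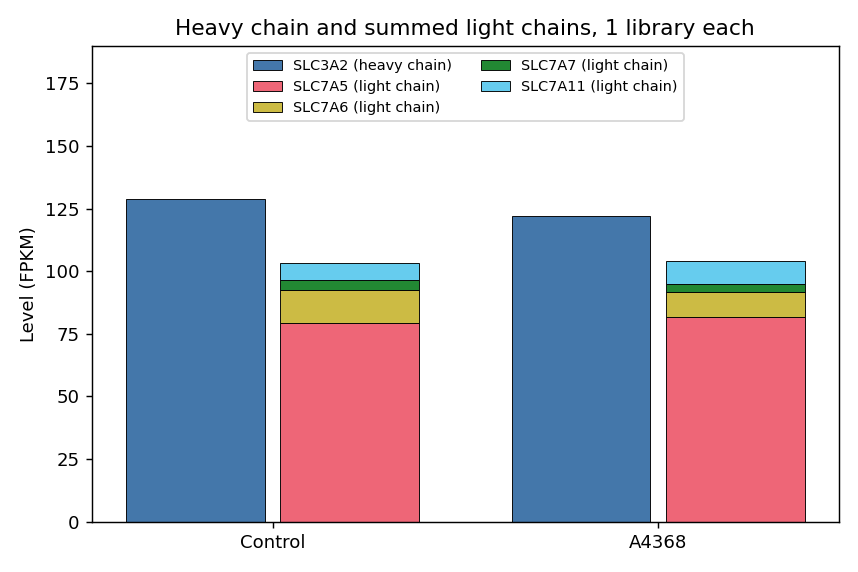
FPKM of SLC3A2 (blue) beside the stacked FPKM of 4 of its light chains in the control and the A4368 library, 1 library each. SLC7A5 (red) makes up most of the light chain stack in both, at 76.8% and 78.5%.

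SLC7A1 encodes CAT1, the carrier of arginine, lysine and ornithine found in most cell types. It was at 9.68 FPKM in both libraries, the smallest difference among the 8 genes, and 99.9% of 4345 genes of like level differed as much or more. The sign of its ratio, -0.00025, has no meaning as a direction and was positive after centring (0.0028) and after the rescaling (0.05). SLC7A2 encodes CAT2, the related carrier known for its role in liver, and was the more abundant member. SLC7A2 was at 16.5 FPKM in control cells and 15.9 FPKM in treated cells, or 1.71 and 1.65 times the SLC7A1 level.

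The other plasma membrane amino acid carriers spread more widely than the 8 genes. Of 33 such genes, 15 had values, 14 of which reached a mean of 1 FPKM, and 18 are not analysed here. Of these 14, 7 were higher and 7 lower, with a median log2 ratio of 0.01. Past the limit, 3 were higher and 3 lower, or 42.9% of the 14 against 12.5% of the 8 and 15.1% of all genes (7.31% higher and 7.79% lower). The median absolute log2 ratio was 0.27 in the 14 genes and 0.06 in the 8. These 14 genes were less abundant, their summed level with SLC6A14 being 173 FPKM in control cells and 166 FPKM in treated cells, and ratios spread more at low levels: the SD of the log2 ratio was 0.17 among genes of like level to SLC38A2 and 0.26 among those of like level to SLC7A1. Of the carriers past the limit, SLC1A3 had 0.842% of genes of like level with an absolute log2 ratio as large. This share was 0.935% for SLC38A4, 2.32% for SLC7A9, 4% for SLC38A3, 5.84% for SLC6A19 and 10.9% for SLC7A11. For the rest of the 14 genes it ran from 21.3% (SLC16A10) to 93.5% (SLC43A1). The difference between the groups of genes, and the part of level in it, was not tested.

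Among these carriers, SLC38A4 and SLC38A3, the SNAT4 and SNAT3 carriers of the same family as SLC38A1 and SLC38A2, were the highest. SLC38A4 was at 10.5 FPKM in control cells and 18.7 FPKM in treated cells, 1.77-fold higher. SLC38A3 was at 4.49 and 7.19 FPKM, 1.6-fold higher. All 4 measured SLC38 carriers of the plasma membrane thus spanned log2 ratios from -0.16 for SLC38A1 to 0.77 for SLC38A4. SLC7A11 was the third gene past the limit upward, at 6.72 and 9.11 FPKM, 1.36-fold higher, but not with a pseudocount of 5.

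The lowest was SLC1A3, the glutamate carrier EAAT1 of the same family as SLC1A4 and SLC1A5. It was at 6.52 FPKM in control cells and 2.92 FPKM in treated cells, 2.24-fold lower. SLC7A9, the light chain whose partner is SLC3A1 and not SLC3A2, was at 18.3 and 11.7 FPKM, 1.57-fold lower. SLC6A19, the neutral amino acid carrier B0AT1, was at 35.8 and 26.8 FPKM, 1.34-fold lower. Families of carriers were therefore mixed in direction, since SLC1, SLC7 and SLC38 each held higher and lower genes.

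**Figure D4:**
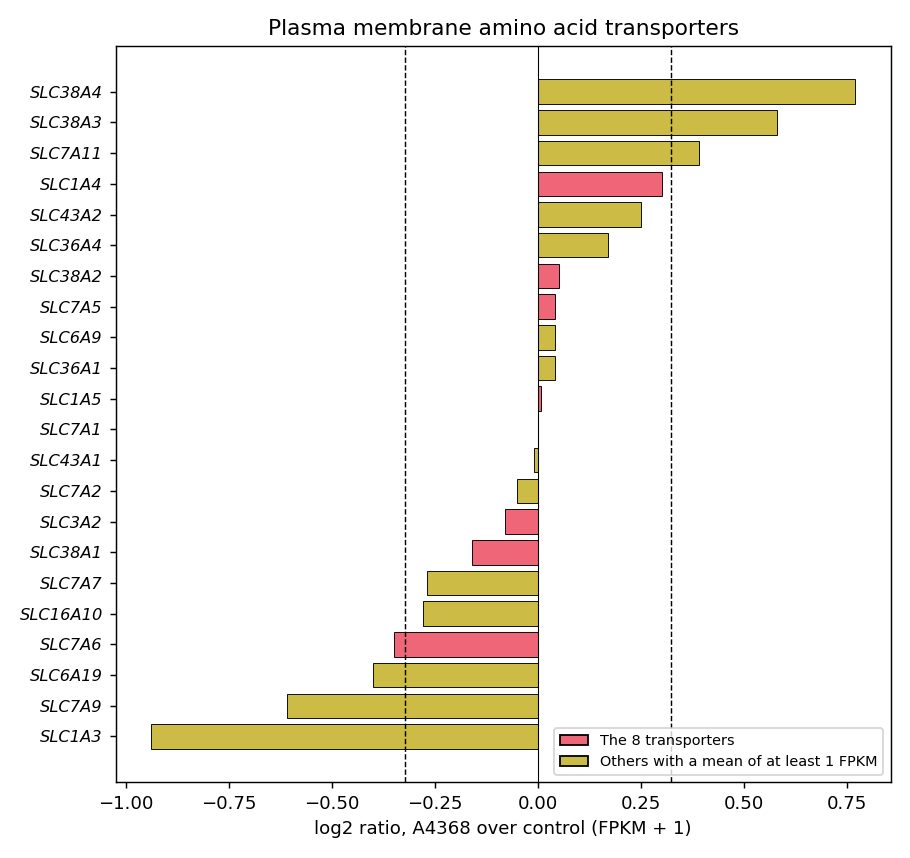
Bars give the log2 ratio of A4368 over control (FPKM + 1) for the 8 transporters (red) and 14 other plasma membrane amino acid carriers with a mean of at least 1 FPKM (yellow), 1 library per group, with dashed lines at the limit of 0.32. SLC7A6 (-0.35) is the 1 red bar past a dashed line, and 6 yellow bars pass one, from SLC38A4 (0.77) to SLC1A3 (-0.94).

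The other 8 carriers kept were within the limit. SLC43A1, the large neutral carrier LAT3, was at 38.5 FPKM in control cells and 38.1 FPKM in treated cells, below the SLC7A5 level in both. SLC43A2, the related LAT4, was at 10.4 and 12.5 FPKM, and SLC16A10, a carrier of aromatic amino acids, at 10.3 and 8.34 FPKM. SLC7A7 was at 3.97 and 3.11 FPKM, and it was lower past the limit with a pseudocount of 0.1 (log2 ratio -0.34). The proton-coupled carrier genes SLC36A1 and SLC36A4 were at 2.65 and 2.74 FPKM and at 5.21 and 5.98 FPKM. The glycine carrier gene SLC6A9 was at 1.92 and 2 FPKM. SLC6A14 was left out of these counts because its mean was under 1 FPKM. It was at 1.28 and 0.466 FPKM, 2.74-fold lower (log2 ratio -0.63), and with no filter on low values it made 4 lower carriers past the limit in place of 3.

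Genes of the response to amino acid shortage, which is known to raise several of these carriers, lay above 0 in 12 of 16 cases and below it in 4, beside 52.0% of all genes higher and 48.0% lower. Their median log2 ratio was 0.08. Of these, 3 were higher past the limit and 1 lower, shares to be set against 7.31% and 7.79% of all genes. ATF4 itself was at 293 FPKM in control cells and 319 FPKM in treated cells, 1.09-fold higher. The related factor gene ATF5 was at 23.3 and 31.3 FPKM, 1.34-fold higher, and CEBPB, which encodes a C/EBP factor, at 9.12 and 12.1 FPKM, 1.33-fold higher. TRIB3, a pseudokinase gene induced by ATF4, was at 38.3 and 48.1 FPKM, 1.26-fold higher. PPP1R15A, which encodes a phosphatase subunit that restores translation, was at 17.9 and 12.8 FPKM, 1.39-fold lower. Of the 8 transporters, SLC1A4 had a log2 ratio of 0.30, and the other 7 ranged from -0.35 to 0.05. The value of SLC1A4 lay below those of the 3 response genes higher past the limit, of which TRIB3 was lowest at 0.32. ASNS was listed with the enzymes further below and not among these 16 genes, and its log2 ratio was 0.61. A link between these genes and the carriers was not tested.

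**Figure D5:**
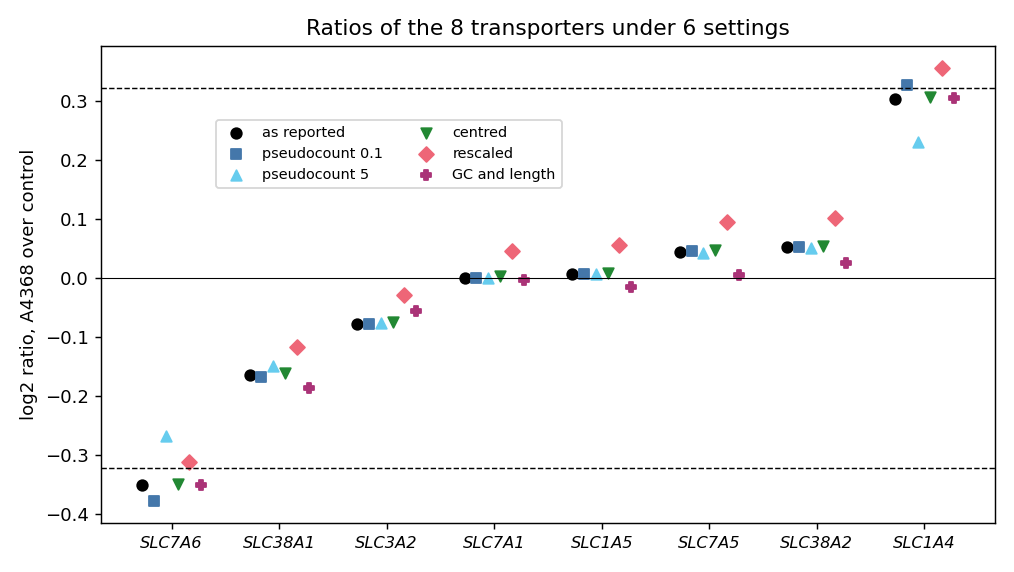
Log2 ratio of each of the 8 transporters under 6 settings (symbols) with dashed lines at the limit of 0.32. SLC7A6 ranges from -0.38 to -0.27 and SLC1A4 from 0.23 to 0.36, each crossing a dashed line, while the other 6 genes stay between -0.19 and 0.10.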

How the data were processed

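Per the submitters' processing notes, reads were handled with TopHat2 2.0.12, Bowtie2 2.2.3 and Cufflinks on hg19. The deposited table pairs each gene symbol with 1 value per library. Its header names no unit, and the deposited values were taken as FPKM because Cufflinks gives that unit and they are not whole. Both values and a symbol were present on 11511 of 24302 lines, and no mean lay under 0.496 FPKM. Annotation, strand and depth were not given in the sources used here. At means under 3 FPKM (1688 genes), no more than 6 genes had 1 ratio in common to 3 decimals, so read counts could not be recovered and no interval or detection floor is given.

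Log2 ratios used a pseudocount of 1 FPKM, and the filter was a mean of 1 FPKM (11238 genes passed, 273 did not). Shared sequence counts how many of the distinct 31-base words of a gene occur, in either orientation, in GENCODE release 29 transcripts of other genes. The members, lists and tests were chosen with earlier results of these data known. The named genes were the 8 members, every other listed carrier with a value, and, from the lists of lysosomal carriers, amino acid response, mTORC1 sensing and first-step enzymes, those past the limit of 0.32 and the one with the highest mean. The ratio calls were tested on simulated data, which hold no information on how far repeated cultures differ. Alternatives were pseudocounts of 0.1 and 5, other filters, limits and scalings, and a cubic correction for GC content and length (99.6% of kept genes matched). A planned comparison of protein sequences was not made. Coordinates belong to GRCh38.p14 and not to the build of the table. Python 3.11.15, numpy 2.4.6 and pandas 2.3.3 were used.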

Additional observations from a re-analysis of the deposited data

How the results depend on the processing

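The 8 transporters gave 56 log2 ratios under the alternatives that could be set beside the reported ones. Of these, 49 kept their sign and their side of the limit of 0.32. The alternatives with no filter and with a filter at a mean of 5 FPKM change only which genes are kept. They could not change a member's ratio, so their values are among the 49 by design. SLC1A4 passed the limit with a pseudocount of 0.1 (0.33) and after rescaling without the 50 highest genes (0.36), which gave 1 higher gene in place of 0 in both, where 9.9% and 10.7% of all genes were higher past it, against 7.31% as reported. SLC7A6 missed it with a pseudocount of 5 (-0.27) and after the rescaling (-0.31), which left 0 lower genes in place of 1. Leaving out genes with 50% or more of their sequence in other genes also left 0 lower, since SLC7A6 is such a gene. A limit of 1.1-fold gave 1 higher and 2 lower members, and one of 1.5-fold gave 0 lower. Signs turned for values near 0. SLC7A1 was at 0.0028 after centring and 0.05 after the rescaling, SLC1A5 was at -0.02 and the median of the 8 genes at -0.01 after correction for GC content and length, and SLC7A2 and SLC43A1 were at 0.00057 and 0.04 after the rescaling, which moved the median of all genes from 0.01 to 0.06. Other carriers past the limit numbered 5 higher and 5 lower at 1.1-fold (26.1% and 23.9% of all genes), and 1 higher and 2 lower at 1.5-fold (1.08% and 2.12%). Dropping SLC7A5 moved the heavy to light chain ratio to 5.387 in the control and 5.456 with A4368. The stricter motif TGATGCAA was held by 2 genes in place of 5. The run of the other carriers without genes of shared sequence was chosen after seeing the data. No paired analysis was possible because each group holds 1 library. Depth is unknown, so it sets no limit that could be computed.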

Other observations

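Genes downstream of amino acid uptake were looked at beside the carriers. Of 11 measured enzymes that take up the first step for the transported amino acids, 6 were higher and 5 lower, beside 52.0% and 48.0% of all genes, with a median log2 ratio of 0.008. Past the limit, 2 were higher and 0 lower, against 7.31% and 7.79% of all genes. ASNS, which makes asparagine from glutamine, was at 45.7 FPKM in control cells and 70.3 FPKM in treated cells, 1.54-fold higher (log2 ratio 0.61). Of 2433 genes of like level, 1.4% had an absolute log2 ratio as large as that of ASNS. BCAT2, which removes the amino group of branched-chain amino acids in mitochondria, was at 32.8 and 41.8 FPKM, 1.27-fold higher (log2 ratio 0.34). GLUL, the glutamine synthetase gene and the most abundant of these enzymes, was at 99.8 and 112 FPKM. Of 8 measured genes of lysosomal carriers, 6 were higher and 2 lower, beside 52.0% and 48.0% of all genes. Past the limit, 1 was higher and 0 lower, against 7.31% and 7.79% of all genes. The carrier gene past it was MFSD12, a lysosomal cysteine carrier gene and the one with the highest mean, at 18.5 and 28.6 FPKM.

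Of 28 genes that pass amino acid signals to mTORC1, 17 were higher and 11 lower, beside 52.0% and 48.0% of all genes. Their median log2 ratio was 0.06. Past the limit, 2 were higher and 1 lower, against 7.31% and 7.79% of all genes. After the libraries were rescaled 22 were higher, a scaling under which 60.9% of all genes were higher. WDR24, a subunit of the GATOR2 complex, was at 7.3 FPKM in control cells and 9.71 FPKM in treated cells, and RRAGC, a Rag GTPase gene, at 11.4 and 14.7 FPKM. LAMTOR1, which anchors the Ragulator complex at the lysosome, was at 37.4 and 29.6 FPKM. SEC13, the most abundant gene of this list, was at 120.4 and 116 FPKM.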
